A study of Mus musculus with 9 samples.

Results

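Motor neurons taken by laser capture microdissection from SOD1-mutant mouse spinal cord were set against whole spinal cord of wild-type mice. The arrays were chosen by their descriptions, which gave 6 of the 9 arrays of the series, 3 of mutant motor neurons and 3 of wild-type cord. All 9 were Affymetrix Mouse 430 2.0 arrays, on which a transcript is read by 1 or more sets of short probes placed mainly near its 3′ end. The 3 arrays not in this comparison hold motor neurons captured from wild-type mice and are used only to show where the mutant captures differ from them. Laser capture cuts single cell bodies from a thin section and collects them. The wild-type cord group carried no mutation, and no drug or other treatment is given for any group. The labels name neither the SOD1 allele nor the age, strain or disease stage of the mice, and the code D28 in the titles is not explained. Each array is described as coming from a mouse, without saying whether the arrays of a group came from separate animals, so p-values rest on a spread between arrays that may be technical. The source field says ventral cord for every array, while the cord arrays are described as total cord. Because the mutant group is captured cells and the wild-type group is tissue, cell type, capture and genotype change together here and cannot be told apart by this comparison alone.

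Motor neurons are the cholinergic output cells of the spinal cord, and their axons leave the cord to drive muscle. LIM and MNX homeobox factors set their identity, and fast-fatiguing neurons, which are known to be lost early in SOD1 models of amyotrophic lateral sclerosis (ALS), carry the markers Chodl and Mmp9. Whole cord holds the RNA of motor neurons together with that of interneurons, oligodendrocytes, astrocytes, microglia, vessels and meninges. The RNA of each cell type is diluted there by that of the others, whereas capture aims to collect motor neurons alone. In bulk samples such as these, fewer cells of a type and less RNA per cell cannot be told apart.

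Values are signal intensities as the authors scaled them, with the same trimmed mean of 2500 on every array. A gene was called higher or lower at a Benjamini-Hochberg adjusted p below 0.05 with limma, a linear model fitted across all probe sets, and log2 differences are given with their standard error (SE) over 3 arrays against 3. Background was the 95th percentile of bacterial control probe sets on each array. The median signal was 555.9 to 582.4 on the cord arrays and 274.0 to 365.5 on the mutant arrays, and 70.8% to 73.7% and 59.6% to 61.1% of all probe sets lay above background. Mutant replicate 2 had the highest median of the captured arrays. Across probe sets, log2 values of mutant arrays correlated with each other at 0.931 to 0.958 and with cord arrays at 0.746 to 0.787.

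The mutant captures gave little signal from the 5′ part of the 2 control transcripts that are read along their length. For the Gapdh control the 3′ signal over the 5′ signal was, on the log2 scale, 4.33, 4.62 and 4.52 on the mutant arrays, against -0.29, -0.26 and -0.27 on the cord arrays. For the Actb control the mutant arrays gave 4.65, 5.81 and 5.31, and cord averaged 0.66 ± 0.03 (SD, n = 3). No mutant array came near a cord array in either ratio (differences of 4.77 and 4.59, p = 0.1 in a two-sided exact permutation test, which cannot go lower with 3 arrays against 3). The part of this in any single difference below was not tested.

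**Figure D1:**
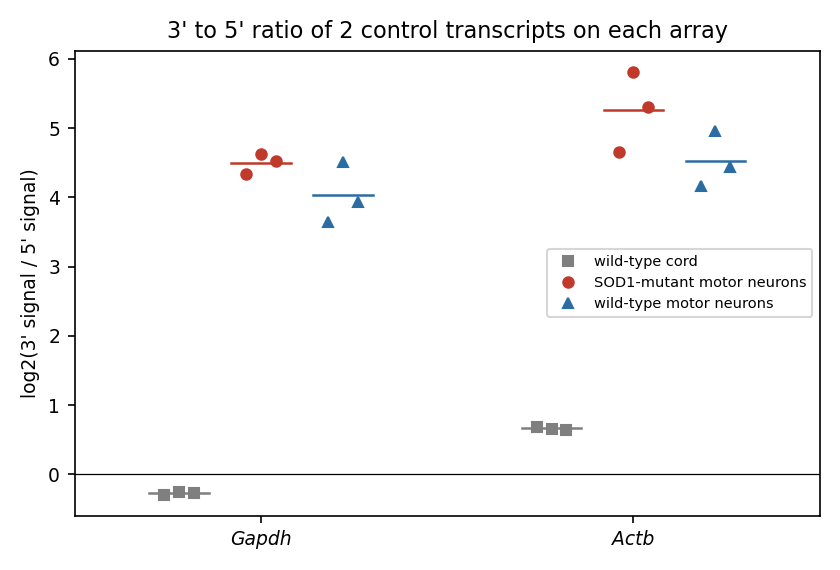
Log2 ratio of 3′ to 5′ signal (vertical axis) of the Gapdh and Actb control transcripts on each of the 9 arrays; points are arrays and short lines are group means. The mutant motor neuron arrays lie between 4.33 and 5.81 and the cord arrays below 1, with the wild-type captures near the mutant ones.

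The defining motor neuron markers were 13.1 to 16.1 times brighter in the mutant captures than in cord. Mnx1, the homeobox factor that fixes motor neuron identity, read 305.5, 296.5 and 254.2 on the cord arrays and 7258, 3482 and 4641 on the mutant arrays (log2 difference 4.01 ± 0.28, SE, adjusted p = 7.87e-06). Isl1, a LIM homeobox factor, went from 1603, 633.7 and 1050 to 10190, 18060 and 13940 (3.72 ± 0.33, adjusted p = 2.96e-05). Neither gene's groups overlapped, although the cord values of Isl1 and the mutant values of Mnx1 spread more than 2-fold between arrays. Chodl, a lectin-like membrane protein of fast motor neurons, read 4575, 4070 and 4431 in cord and 75310, 64120 and 71550 in the captures (4.0 ± 0.11, adjusted p = 3.74e-07). Mmp9, a matrix metalloproteinase of fast motor neurons, read 962.2, 1236 and 1060 against 15590, 16890 and 15180 (3.85 ± 0.14, adjusted p = 7.73e-07). Both fast markers were tight within each group, and all 4 markers of the labelled cell type were above every cord array on all 3 mutant arrays.

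Sod1 itself, read here by probe sets designed for the mouse gene, was 2.33-fold higher in the mutant captures than in cord. Its brightest probe set gave 48030, 49250 and 45080 in cord and 84710, 132000 and 120300 in the captures (log2 difference 1.22 ± 0.16, SE, limma adjusted p = 0.000272). Every mutant array lay above every cord array, replicate 1 least so. Of its 4 tested probe sets 2 were called higher and none lower. Wild-type captures set against the same cord arrays gave a log2 difference of 1.07, and the mutant and wild-type captures differed by 0.14 (adjusted p = 0.698). Whether these probe sets also read a transgene is not known here.

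Over the whole array, most of what was tested differed between the mutant captures and cord. Each gene was read by its brightest probe set, the one with the highest mean log2 signal over the 3 groups of arrays. This choice can pass over a probe set with a deeper fall, as it did for Gfap. Of 12983 genes tested, 8270 were called (63.7%), 3689 higher (28.4%) and 4581 lower (35.3%). Mutant and cord arrays did not overlap for 9235 genes (71.1%). Counted by probe set, 16784 of 27022 were called (62.1%), 5925 higher (21.9%) and 10859 lower (40.2%). With the authors' scaling 376 genes were called higher and 1263 lower by more than 2 on the log2 scale, and beyond 4 the numbers were 10 and 125. The balance of directions moves with the scaling. The median log2 difference of all genes was -0.13 with the authors' scaling, 0.25 after quantile normalization and 0.72 after centring each array on its median. Quantile normalization called 5069 genes higher (39%) and 3199 lower (24.6%), and centring 6742 higher (51.9%) and 1881 lower (14.5%). In all 3 scalings, 3355 genes were higher (25.8%) and 1852 lower (14.3%). Probe sets of a gene also disagreed: of 3454 genes for which at least 2 were called, 1300 had both a higher and a lower one, so a value below is that of 1 probe set unless more are given.

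**Figure D2:**
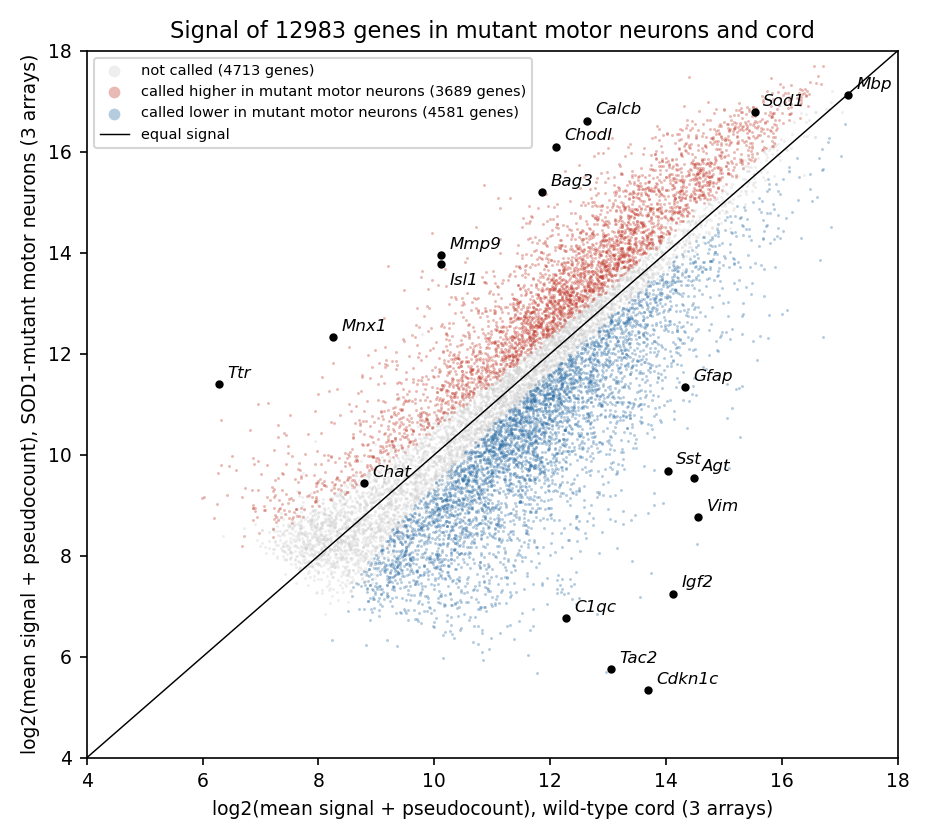
Log2 mean signal (plus pseudocount) of each gene in wild-type cord (horizontal axis) and in SOD1-mutant motor neurons (vertical axis), 3 arrays each, coloured by the limma call; named genes are black. The 4 defining markers lie far above the line of equal signal and genes of glia, meninges and interneurons far below it, while Mbp lies on it.

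The largest rises among genes above background on all 6 arrays and called in all 3 scalings were those of Pappa, Kcnj14, Polr1c, Calcb, Mnx1, Chodl, Rspo2, Dmp1, Mmp9 and Cks2. This ranking left out predicted, clone-named and Fam genes. Pappa, a secreted metalloproteinase that cleaves insulin-like growth factor binding proteins, went from 662.0, 615.0 and 425.4 to 15000, 13330 and 12410 (23.5-fold, log2 difference 4.55 ± 0.19, SE, limma adjusted p = 1.27e-06). Kcnj14, an inward rectifier potassium channel, rose from 1519, 1986 and 2010 to 40540, 39650 and 44550 (22.5-fold). Calcb, the gene of the neuropeptide beta-CGRP, was among the brightest genes of the captures, at 96510, 99800 and 105400 against 8150, 4798 and 6085 in cord. In all 3 genes the lowest mutant array was more than 10 times the highest cord array. Rspo2, a secreted enhancer of Wnt signalling, was 15.8-fold higher (29310 to 40200 against 1922 to 2380), and Dmp1, an acidic matrix phosphoprotein best known from bone and tooth, 14.8-fold, with 3 of 3 probe sets higher (log2 differences of 1.11 to 3.89). Polr1c, which RNA polymerases I and III share, was 21.7-fold higher on 1 of its 2 probe sets. Cks2, a small subunit of cyclin-dependent kinases, was 13.8-fold higher on its brightest probe set (log2 difference 3.78) and higher by 1.82 on its other.

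A further 22 genes were called higher although all cord arrays lay below background on the gene's brightest probe set. Their rise has only a lower bound, and predicted, clone-named and Fam genes were left out of the count. Ttr, the transthyretin that carries thyroid hormone and is made in bulk by choroid plexus, read 5.494, 150.7 and 15.34 in cord and 2952, 2855 and 2258 in the mutant captures, at least 15.6-fold higher. Its other 2 probe sets were higher by 3.17 and 3.26 on the log2 scale, and there 3 cord values (254.0, 267.8 and 391.4) lay above background. Another choroid plexus gene, the potassium channel Kcnj13, lay below background on all 3 mutant arrays (30.46 to 158.3) and was at least 3.81-fold lower than in cord. Rasl10a, a small GTPase of the Ras family, was at least 11.8-fold higher, Spp2, a secreted phosphoprotein, at least 9.55-fold, Crb1, a cell polarity protein, at least 5.34-fold, and Edn2, an endothelin peptide, at least 5.24-fold. All 5 were above background on every mutant array.

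Other motor neuron genes rose to different degrees. Of 13 genes of motor neuron subtypes tested, 9 were higher and 3 lower, with a median log2 difference of 2.32 against -0.13 for all genes. Prph, the peripherin filament of neurons with peripheral axons, was 8.70-fold higher (58570 to 67810 against 4862 to 10150), and Gfra1, a receptor for glial cell line-derived neurotrophic factor, 4.98-fold on its brightest probe set, with 2 of its 3 probe sets lower. The lower ones were the vesicle protein gene Sv2a (-1.97), the transcription factor gene Bcl11b (-1.68) and Cd44, a hyaluronan receptor, which was below background on all mutant arrays and at least 21.5-fold lower. Of 13 transcription factors, 7 were higher and 2 lower, where 28.4% of all genes were higher and 35.3% lower. Lhx4, the LIM factor that acts early in motor neuron fate, was higher by 1.83 and its relative Lhx3 by 0.89 on the log2 scale, a call that was lost without any one of cord replicates 1 and 3 and mutant replicates 2 and 3 (0.69 to 0.87, limma adjusted p = 0.0556 to 0.124), with no filter (adjusted p = 0.0606) and with the replicate block (adjusted p = 0.0551). Bcl6, a transcriptional repressor, was higher by 2.95 on 1 probe set and lower on its other.

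The cholinergic genes were less uniform. Slc18a3, the vesicular acetylcholine transporter, read 2479, 2459 and 2993 in cord and 9066, 6210 and 7625 in the captures (log2 difference 1.51 ± 0.17, SE, limma adjusted p = 9.34e-05). Chat, the enzyme that makes acetylcholine, was dim on its single probe set, at 396.8, 432.8 and 441.4 in cord and 353.8, 1070 and 595.6 in the captures (0.51 ± 0.40, adjusted p = 0.291). Chat was called higher after quantile normalization (1.38, limma adjusted p = 0.0108), after centring (1.36, adjusted p = 0.00733) and without mutant replicate 1 (0.89, adjusted p = 0.0442). The Slc18a3 groups were well apart, whereas mutant replicate 1 lay below all cord arrays for Chat. Of 9 cholinergic genes 4 were higher and 1 lower, with a median of 0.51, where 28.4% of all genes were higher and 35.3% lower. Acly, which supplies cytosolic acetyl groups, was higher by 1.92 on its brightest probe set (1 of 5 probe sets higher and 1 lower), the acetylcholine-splitting enzyme Ache by 1.18 and the choline transporter Slc5a7 by 0.83 (0.63 and not called without cord replicate 3, limma adjusted p = 0.0552). Bche, the butyrylcholinesterase, was lower by 2.37 on the log2 scale.

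Lists of genes that shape excitability and transmission had members called in each direction, as did all genes (28.4% higher and 35.3% lower). Among 17 ion channels and pumps 7 were higher and 6 lower (median -0.02, and 0.30 and 0.82 after quantile normalization and centring). Beside Kcnj14, the acid-sensitive leak channel gene Kcnk3 was higher by 1.74 and the sodium channel gene Scn1a by 1.36 on the log2 scale. Cacna1e, the R-type calcium channel, dropped from 5286, 5721 and 5651 to 290.3, 541.4 and 430.2 (-3.70 ± 0.23, SE, limma adjusted p = 5.24e-06), and the pacemaker channel gene Hcn2 was lower by 3.23. Of 18 glutamate receptor genes 5 were higher and 7 lower near the share of all genes (median -0.25, turning to 0.35 after quantile normalization and 0.60 after centring). Grin3b, an NMDA receptor subunit of motor neurons, read 806.4, 754.3 and 737.6 in cord and 5702, 5513 and 4596 in the captures (6.70-fold higher), while the metabotropic receptor gene Grm5 was 10.9-fold lower and the kainate subunit gene Grik5, below background on all mutant arrays, at least 15.9-fold lower. Of 11 receptors for glycine and GABA 5 were higher and 4 lower. Glrb, the shared glycine receptor subunit, was higher by 0.98, and Gabra3 and Glra3, subunits for GABA and glycine, were lower by 2.94 and 2.46. Among 17 trophic receptors (6 higher, 9 lower), Ret, the signalling partner of Gfra1, was higher by 2.35 on 1 of its 2 probe sets and lower on the other.

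Presynaptic genes split as sharply. Of 20 genes of synaptic release 9 were higher and 8 lower (median 0.22, turning to -0.30 after quantile normalization and to -1.01 when all probe sets of a gene were averaged). The shares over all genes were 28.4% and 35.3%. Sv2b, a synaptic vesicle protein, rose from 8946 to 10190 in cord to 51430 to 56000 in the captures (5.66-fold). Syt1, the main calcium sensor of fast release in the brain, was lower on 4 of 4 probe sets (20760, 22680 and 21310 against 1329, 3215 and 1802 on the brightest), and the complexin gene Cplx2 and synapsin gene Syn1 were lower by 3.11 and 2.36. Their relatives Syt4, Cplx1 and Syn2 were called higher, by 0.92, 1.05 and 1.01 on the log2 scale.

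The 3 neurofilament chains were higher in the captures with the authors' scaling, and the cytoskeletal genes as a list had members called in each direction. Nefl, the light neurofilament chain, read 102400, 107900 and 91980 in cord and 146600, 207500 and 199000 in the captures (log2 difference 0.86 ± 0.15, SE, limma adjusted p = 0.00112), with 0.59 on its other probe set. Nefh, the heavy chain, was higher by 1.23 and Nefm, the middle chain, by 0.76 (0.21 and not called after quantile normalization). The neuronal tubulin gene Tubb3 was 4.33-fold higher and Sncg, gamma-synuclein, 4.78-fold. Gap43, a growth cone protein, was lower by 3.04, Tubb4a, the beta tubulin of oligodendrocytes and some neurons, by 3.01 and Mapt, the microtubule protein tau, by 1.41 on 4 of 4 probe sets. In all, 12 of 21 cytoskeletal genes were higher and 6 lower, with a median of 0.47 that fell to -0.05 after quantile normalization and to -0.69 over all probe sets. The shares over all genes were 28.4% higher and 35.3% lower. Of 23 genes of axonal transport 12 were higher and 7 lower (median 0.57, and -0.29 over all probe sets). Kif21a and the kinesin light chain gene Klc1 were higher by 1.83 and 1.49, and Kif1a, a kinesin that carries synaptic vesicle precursors, was 9.33-fold lower on its brightest probe set (-3.22) and differed by -6.56 on its other.

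Heat shock and protein-folding genes were mostly higher in the mutant captures. Of 33 chaperones 28 were higher and 1 lower, with a median log2 difference of 0.94, where 28.4% of all genes were higher. In a separate list of small heat shock proteins with their co-factor Bag3, 7 genes were tested and 4 were higher and 1 lower (median 0.89). Bag3, the co-chaperone that couples small heat shock proteins to autophagy, read 3935, 3271 and 3914 in cord and 37070, 38050 and 37710 in the captures (10.1-fold, log2 difference 3.34 ± 0.11, SE, limma adjusted p = 6.37e-07). Hspb8, its small heat shock partner, read 7450, 6466 and 6760 against 50870, 72400 and 62330 (8.88-fold, with 2 of 3 probe sets higher and 1 lower), and Hspb1 15790, 12630 and 14540 against 44370, 80260 and 66990 (4.34-fold, with its other probe set higher by 2.41). The mutant arrays lay far above cord for each, replicate 1 lowest for Hspb1 and Hspb8. Chordc1, an HSP90 co-chaperone, was 5.54-fold higher, Hspa9, the mitochondrial HSP70, 3.99-fold on its brightest probe set (2.0, with 0.68 and 2.58 on its others), and Hspa4, an HSP110-like exchange factor, higher by 1.92 on the log2 scale. The stress-inducible HSP70 genes Hspa1a and Hspa1b were 4.41-fold and 4.28-fold higher, but they are near-identical copies whose probe sets may read both. The constitutive Hspa8 and Hsp90aa1 were higher by 0.67 and 0.61 with the authors' scaling, and not in all 3 scalings. Wild-type captures against the same cord gave 3.42 for Bag3, 3.11 for Hspb8 and 2.17 for Hspb1.

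The heat shock element was looked for in the bases before the start sites of heat shock and chaperone genes. RefSeq promoter windows of the mouse build GRCm38.p6 were used. HSF1 binds inverted repeats of GAA, and the windows were searched for GAANNTTC and TTCNNGAA in the 250 bases upstream (each reads the same on both strands, and the motifs can overlap each other). Of 40 heat shock and chaperone genes tested, 32 had a window and 13 of these held a match (40.6%), 12 of them among the 26 called higher. Of all 27025 genes with a window, 3932 held one (14.5%). The list was chosen as heat shock and chaperone genes, so these shares are no test of why its genes were higher. That was not tested. Shown are the stretches around the matches of 6 genes called higher, with the matched triplets in capitals: Hspb1 at chr5:135887762-135887869 (plus strand), Hspa1a at chr17:34972213-34972300 and Hspa1b at chr17:34959295-34959382 (both minus strand, and the same sequence), Hspd1, the mitochondrial chaperonin, at chr1:55088019-55088116 (minus strand), Hsph1, an HSP110, at chr5:149636337-149636409 (minus strand) and Dnaja1, a J-domain co-chaperone, at chr4:40722304-40722391 (plus strand).
Hspb1: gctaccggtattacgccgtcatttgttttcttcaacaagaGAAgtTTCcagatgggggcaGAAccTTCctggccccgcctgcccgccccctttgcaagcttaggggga
Hspa1a and Hspa1b: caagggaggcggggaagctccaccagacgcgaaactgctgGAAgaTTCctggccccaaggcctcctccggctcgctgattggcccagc
Hspd1: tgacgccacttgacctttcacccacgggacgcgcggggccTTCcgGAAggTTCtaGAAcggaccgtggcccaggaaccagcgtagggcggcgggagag
Hsph1: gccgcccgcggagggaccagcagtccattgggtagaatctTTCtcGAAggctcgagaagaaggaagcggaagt
Dnaja1: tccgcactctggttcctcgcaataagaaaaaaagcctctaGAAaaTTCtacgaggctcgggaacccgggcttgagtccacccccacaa

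Hspd1 holds 3 overlapping matches in a row and Hspb1 2 separate ones, and the others 1 each. Their log2 differences from cord were 1.47 for Hspd1, 2.12 for Hspb1, 1.55 for Hsph1 and 1.18 for Dnaja1. Bag3, Hspb8 and Chordc1 had the largest differences from cord of these lists, and no match of theirs is shown here. A match describes the sequence and shows no binding.

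Proteasome and mitochondrial genes were also mostly higher, where 28.4% of all genes were higher and 35.3% lower (39% and 24.6% after quantile normalization). Of 31 proteasome subunits 21 were higher and 5 lower (median 0.86, and 18 and 7 after quantile normalization). Psmb3, a core beta subunit, was 6.03-fold higher on its brightest probe set (95820 to 140900 against 18120 to 21450, log2 difference 2.59) but by 0.54 on its other, and Psmd7, a subunit of the regulatory lid, was lower by 2.44. Of 54 genes of the respiratory chain and ATP synthase 44 were higher and 3 lower with the authors' scaling (median 0.76), but 27 and 10 after quantile normalization (median 0.24). The subunits of complex I Ndufa5, Ndufb3 and Ndufb6 led, with Ndufa5 at 21780, 20950 and 20560 in cord and 84670, 100200 and 97200 in the captures (4.44-fold). Of 19 genes of mitochondrial protein import 13 were higher and 2 lower (median 0.88). Chchd4, which drives oxidative folding in the intermembrane space, was highest (6.57-fold), followed by Tomm7, Tomm22 and Timm10 (2.10, 1.97 and 1.95 on the log2 scale). The other Tomm22 probe set was called lower (-0.40). Tomm40, the channel of the outer membrane, was lower by 1.89. Glycolysis was mixed: 6 of 13 genes were higher and 2 lower, and after quantile normalization 4 and 5.

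Antioxidant genes went both ways. Sod2, the mitochondrial superoxide dismutase, was 4.57-fold higher (15120, 13450 and 14900 against 57970, 74810 and 66790), although 2 of its 4 probe sets were lower. Sod3, the extracellular enzyme, and the heme oxygenase gene Hmox1 lay below background on all mutant arrays and were at least 7.85-fold and 2.93-fold lower. The antioxidant regulator gene Nfe2l2 was lower by 2.44 on the log2 scale and the glutathione transferase gene Gstm1 by 2.29. Thioredoxin Txn1, the peroxiredoxins Prdx3 and Prdx2 and the glutathione peroxidase Gpx4 were higher by 1.98, 1.36, 1.32 and 1.22. In total 13 of 29 were higher and 5 lower, beside 28.4% and 35.3% of all genes.

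Of 32 genes mutated in inherited ALS or in related motor neuron diseases, 19 were higher and 7 lower, with a median of 0.55 that turned to -0.16 when probe sets were averaged. Counts here are to be read against 28.4% higher and 35.3% lower over all genes. Hspb8, Hspb1, the guanine exchange factor C9orf72 (1.83), the kinase Tbk1 (1.78) and Sod1 were the highest among those described here. Pfn1, which binds actin monomers, was lower by 2.64 and the angiogenic ribonuclease Ang by 4.09, above background on 1 of 3 mutant arrays. Tardbp, which encodes TDP-43, was higher by 0.81, with 2 of 5 probe sets higher and 1 lower. Autophagy and lysosome genes (11 higher and 8 lower of 26) and splicing factors (14 and 9 of 30) went both ways, and the medians of both lists changed sign over all probe sets (0.35 to -0.28 and 0.38 to -0.35).

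Genes of the endoplasmic reticulum went both ways. Of 26 genes of endoplasmic reticulum stress 9 were higher and 11 lower (median -0.28, turning to 0.57 after centring). This is not far from the shares over all genes, 28.4% higher and 35.3% lower. Hspa5, the main HSP70 of this compartment, was higher by 1.21 and Chac1, a stress-induced enzyme that degrades glutathione, 4.13-fold higher. Pdia3, a disulfide isomerase, read 35140, 32910 and 33730 in cord and 1793, 1576 and 1686 in the captures on its brightest probe set (19.9-fold lower), while its other, dim probe set was not called (0.18, limma adjusted p = 0.362). Pdia4 was lower by 2.73 and Herpud1, which serves protein disposal, by 1.45. The stress factors Ddit3 and Atf4 were lower by 0.56 and 0.46 with the authors' scaling and turned to 0.29 and 0.39, not called, after centring. Ddit3 was not called after quantile normalization (-0.05, limma adjusted p = 0.766). Atf4 lost its call without the intensity trend (adjusted p = 0.0694), without any one cord replicate (0.0912, 0.0694 and 0.0628) and without mutant replicate 3 (0.0837).

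Injury and activity genes had members called in each direction, at shares to be read against 28.4% higher and 35.3% lower over all genes. Among 24 axon injury genes 5 were higher and 11 lower (median -0.48, turning to 0.37 after centring): Jun, the AP-1 factor of the injury response, was higher by 1.18, and the neuropeptide gene Npy was lower by 4.50, with 2 of 3 mutant arrays above background. Adcyap1, another neuropeptide gene, was below background on all mutant arrays and at least 12-fold lower. Atf3, the injury factor most often used as a marker, was below the filter on its single, dim probe set. It read 211.7 to 247.5 on the mutant arrays and 49.2 to 297.7 on the cord arrays. Of 18 immediate early genes 5 were higher and 6 lower, which is near the share of all genes. Fos and Ier3 were higher by 1.09 and 2.02, and Egr1 was lower by 1.41. Nr4a1 was also called lower, at 148.4, 317.7 and 132.7 against 1674 to 2054 in cord, with 1 of 3 mutant arrays above background. Of 24 apoptosis genes 6 were higher and 11 lower (median -0.50, turning to 0.30 and 0.34 in the other scalings).

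Among genes above background on all 6 arrays and called in all 3 scalings, Vim had the largest fall. Predicted, clone-named and Fam genes were again left out. Vim, an intermediate filament of astrocytes, vessels and meninges, read 31480, 17080 and 23640 in cord and 622.8, 353.0 and 270.7 in the captures (56.7-fold lower, log2 difference -5.83 ± 0.32, SE, limma adjusted p = 3.02e-06), with -5.08 and -5.28 on its other 2 probe sets. Klk6, a protease of oligodendrocytes, was 41.4-fold lower and Col1a2, a fibrillar collagen, 35.1-fold (20350 to 45920 against 791.5 to 1035). No mutant array overlapped a cord array for any of the 3. The apelin receptor gene Aplnr, the myelin gene Pllp, the angiotensinogen gene Agt, S100a6, the matrix genes Mgp and Nid1 and the somatostatin gene Sst completed the 10 largest falls above background, at 24.9-fold to 32.7-fold lower.

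A group of 116 genes, not counting predicted, clone-named and Fam genes, was called lower with all mutant arrays below background. For these only a bound can be given. Igf2, a growth factor of meninges and vessels, read 25060, 10330 and 17830 in cord and 72.45, 242.3 and 80.79 in the captures, at least 79.6-fold lower. Cdkn1c, a cell cycle inhibitor, was at least 62.8-fold lower (13530, 12950 and 12930 against 15.44, 29.43 and 15.16). Tac2, a tachykinin of dorsal horn neurons, was at least 40.2-fold lower, Zic1, a dorsal transcription factor, at least 34.1-fold and Pmp2, a myelin protein mainly of Schwann cells, at least 33.4-fold.

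Marker genes of most other cell types were lower, where 35.3% of all genes were lower and 28.4% higher. All 15 meningeal genes tested were lower (median -4.02 against -0.13 for all genes), with the collagen gene Col3a1 at -6.17 (2 of 3 mutant arrays above background). All 17 microglial genes were lower (median -2.98), of which 10 were still above background on all mutant arrays and 1, Aif1, on none (at least 5.28-fold lower). C1qa, a complement subunit made by microglia, read 7862, 7116 and 7003 in cord and 825.1, 399.9 and 570.2 in the captures, and its partner C1qc 5247, 4548 and 4957 against 48.97, 18.76 and 198.3, of which 1 was above background. All 9 oligodendrocyte precursor genes were lower (median -2.14), led by the growth factor receptor gene Pdgfra at 16-fold. Of 17 vascular genes 15 were lower and 2 higher, the latter being Egfl7 (0.92, with 2 of 4 probe sets higher and 1 lower) and Itm2a (0.68, 1 of 2 higher and 1 lower). Itm2a was not called after quantile normalization (0.17, limma adjusted p = 0.403), when 1 vascular gene was higher and 13 lower. Summed over their lists, mutant arrays gave 12160 to 16710 against 86400 to 98660 in cord for microglia, and 41480 to 44220 against 188600 to 331400 for meninges. Of 6 ependymal genes 3 were lower and 3 not called (median -0.96), and after quantile normalization 1 was lower (median -0.19). Of the red blood cell list only Fech was tested. It was higher by 0.62 on its brightest probe set, and its others were not called (0.18 and -0.05). The muscle genes Mylpf and Pvalb were not called with the authors' scaling. Of 7 Schwann cell genes 5 were lower.

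**Figure D3:**
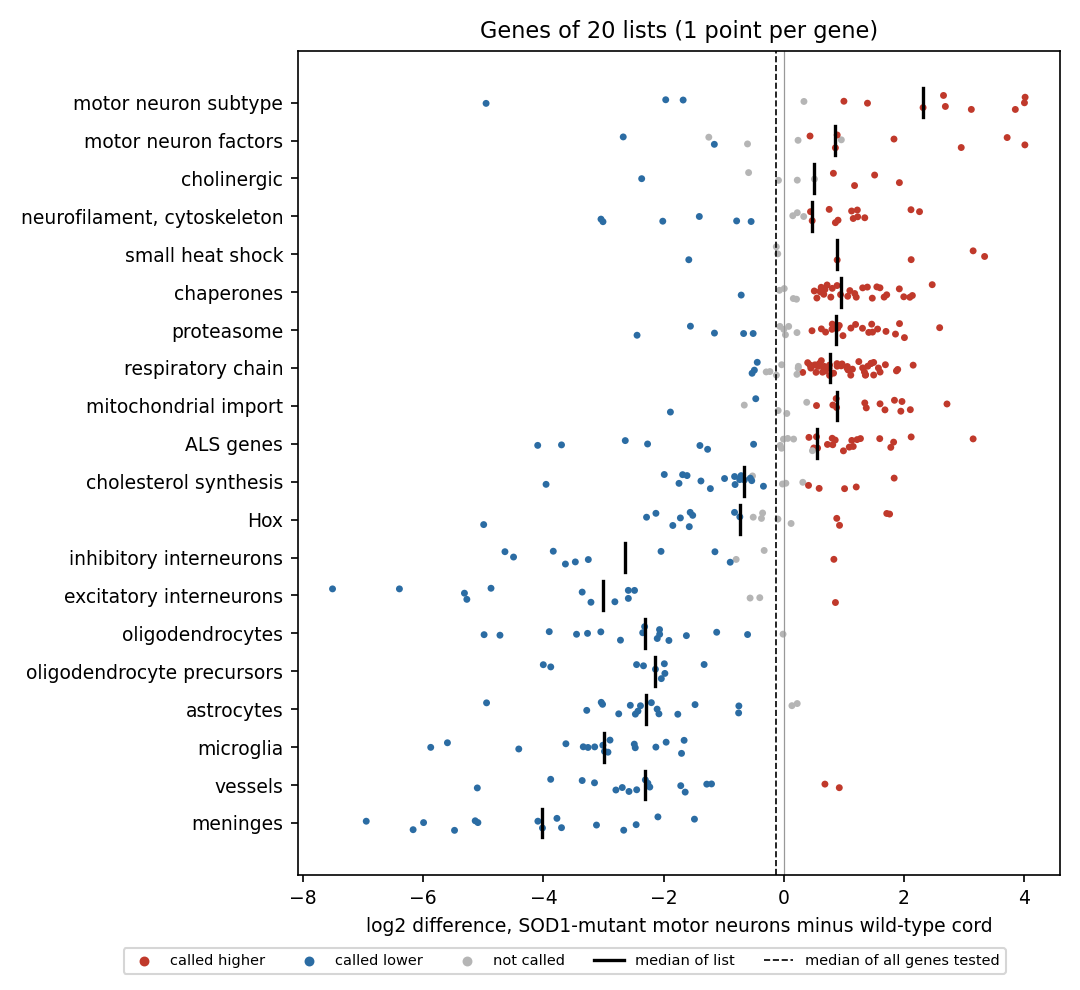
Log2 difference of mutant motor neurons from cord (horizontal axis) for each tested gene of 20 lists (rows), coloured by the limma call; the black bar is the list's median and the dashed line the median of all genes, -0.13. Motor neuron, chaperone, proteasome and mitochondrial lists have medians above 0, and the lists of other cell types medians from -2.14 to -4.02.

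Oligodendrocyte genes were lower with one exception, Mbp. Of 17 tested, 16 were lower and 1 was not called (median -2.32), where 35.3% of all genes were lower. Mag, a myelin-associated glycoprotein, read 57060, 58320 and 51050 in cord and 5684, 4188 and 5416 in the captures, and Fa2h, which hydroxylates myelin lipids, was 15-fold lower. Mbp, the major basic protein of myelin, read 144300, 157700 and 130600 in cord and 131100, 160900 and 137300 in the captures, with overlapping groups (log2 difference -0.01 ± 0.12, SE, limma adjusted p = 0.935), but it was called lower after quantile normalization (-0.49) and higher after centring (0.83). Of its 8 probe sets 1 was lower and none higher, and that one went from 147500, 174900 and 128200 to 1119, 1561 and 821.6. The list's summed signal was 951100 to 1095000 in cord and 391700 to 397500 in the captures.

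Astrocyte genes were lower in 16 of 18 members (median -2.29), against 35.3% of all genes. The other 2, Glul and S100b, were not called at 0.13 and 0.22 but were called lower after quantile normalization (-0.46 and -0.39) and higher after centring (0.98 and 1.07). Gfap, the astrocyte filament, read 23730, 16710 and 21440 in cord and 1659, 3343 and 2709 in the captures on the probe set with the highest mean log2 signal (8.21-fold lower, log2 difference -3.04). Its other 2 probe sets were brighter in cord, at 51910 to 62220, and read 144.2 to 909.0 on the mutant arrays, a far deeper drop (-6.43 and -7.90). Agt was 30.8-fold lower, Slc1a2, the main glutamate transporter, 9.71-fold, Slc6a11, a GABA transporter, 8.09-fold and Aqp4, the water channel of astrocyte endfeet, 4.61-fold. All 18 had groups that did not overlap with cord, where 71.1% of all genes did not. The astrocyte signal summed to 280100 to 294400 on the mutant arrays, 577300 to 640900 in cord and 218200 to 239500 on the wild-type captures.

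Markers of other neurons were lower too, where 35.3% of all genes were lower and 28.4% higher. Of 12 inhibitory interneuron genes 9 were lower and 1 higher (median -2.65), and of 14 excitatory and dorsal horn genes 11 were lower and 1 higher (median -3.01). Gad1, which makes GABA, read 19040, 23280 and 20870 in cord and 1384, 1783 and 1238 in the captures (14.3-fold lower). Sst, somatostatin, read 16580, 17700 and 15740 against 234.6, 1317 and 857.7, and Slc17a6, the vesicular glutamate transporter, 28730, 31670 and 28510 against 2122, 8279 and 4212. For Sst and Slc17a6 mutant replicate 1 was lowest and replicate 2 highest, yet all 3 stayed below all cord arrays. The transcription factor gene Ebf2 was at least 12.6-fold lower. The exceptions were the calcium buffer gene Calb2 (log2 difference 0.83) and the peptide gene Cck (0.86). Parvalbumin, Pvalb, was not called with the authors' scaling (-0.33). It was called lower after quantile normalization (-0.67, limma adjusted p = 0.0215) and without mutant replicate 2 (-0.57, adjusted p = 0.0116). After centring it was called higher (0.52, adjusted p = 0.0251).

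Hox genes, which mark position along the cord, showed a mixed pattern: 10 of 19 were lower and 4 higher (median -0.73, turning to 0.12 after centring). Over all genes 35.3% were lower and 28.4% higher. Hoxb9 was below background on all mutant arrays and at least 18.8-fold lower, and Hoxd8, Hoxa5 and Hoxb3 were lower by 2.28, 2.13 and 1.85. The other Hoxa5 probe set was called higher (0.77). Hoxc10, a lumbar gene, rose from 3965, 4643 and 4203 to 15550, 13050 and 14970 (3.39-fold), and Hoxc5, Hoxd9 and Hoxa9 were higher by 1.71, 0.93 and 0.88. The level of the cord from which cells or tissue were taken is not given in the labels. Genes of cholesterol and lipid synthesis were lower in 16 of 25 and higher in 5 (median -0.66, turning to 0.19 after centring). The farnesyl diphosphate synthase gene Fdps was 15.5-fold lower. Hsd17b7 was higher by 1.84 on its brightest probe set, while its others gave -2.06 (called lower), 0.08 and 0.48 (neither called).

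Where the mutant captures departed from wild-type captures was tested directly between the 2 groups of captured arrays. Both are set against the same 3 cord arrays, so their differences from cord are given side by side and not compared as independent results. Wild-type captures against cord had 17700 of 27022 probe sets called (65.5%). Of 12983 genes 33 were called between the genotypes (0.254%), 22 higher (0.169%) and 11 lower (0.0847%) in the mutant. Of these 33, 24 were also called between the mutant captures and cord, as were 63.7% of all genes. Both tests use the same mutant arrays. Of the 56 genes in the motor neuron factor, cholinergic, subtype and cytoskeleton lists, limma called none between the genotypes, and 10 had an unadjusted p below 0.05 (2182 of all genes, 16.8%). Mnx1, Isl1, Chodl and Mmp9 differed between the genotypes by -0.48, 0.08, 0.02 and -0.07 on the log2 scale (adjusted p = 0.381, 0.898, 0.952 and 0.855).

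The 3 calls with the smallest adjusted p were of genes higher than cord in the mutant captures, while the wild-type captures differed from cord by -1.23, -0.99 and 0.35 on the log2 scale. Tmem87a, a membrane protein of the Golgi, read 1028, 1152 and 953.2 in cord, 12640, 7535 and 11140 in the mutant captures and 462.9, 371.7 and 471.2 in the wild-type captures (mutant minus wild type 4.50 on the log2 scale, limma adjusted p = 4.82e-05). Nudt19, a peroxisomal hydrolase of coenzyme A, read 4345, 4858 and 5188, then 13540, 12260 and 12770, then 2183, 2645 and 2376 in the same order (2.41, adjusted p = 0.000129), with its other probe set lower than cord in the mutant and not called between the captures (0.33, adjusted p = 0.495). Chchd4 read 1820, 2022 and 1835, then 11450, 12120 and 14170, then 2078, 2653 and 2557 (2.37, adjusted p = 0.000229). No mutant array overlapped a wild-type array for any of them (24.3% of all genes had no overlap). Tmem87a and Nudt19 kept their call under every one of the 16 alternatives tried, and Chchd4 under 15 of 16 (highest adjusted p 0.0565). The other genes named below lost their call under 4 or more. The number of called probe sets, 60 of 27022 (0.222%; 41 higher, 0.152%, and 19 lower, 0.0703%), was 11, 13 and 6 without wild-type capture replicate 1, 2 or 3, and 7 without mutant replicate 3.

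Among the rest, several are known from astrocytes, and the mutant captures were less depleted of them. Gja1, the connexin 43 of astrocyte gap junctions, was lower than cord by 0.75 in mutant (turning to 0.10 above it after centring) and by 2.0 in wild-type captures (difference 1.25, limma adjusted p = 0.017) on the brightest of its 6 probe sets. Called lower than cord on 5 of them, by 0.75 to 6.70 in the mutant, it was called between the captures on 2. On the probe set with the deepest fall the captures differed by 0.008 (adjusted p = 0.997). Kcnj10, the astrocyte potassium channel Kir4.1, was lower by 1.39 and 2.56 (difference 1.17, adjusted p = 0.0358). After centring, its mutant difference from cord was -0.55 and not called (limma adjusted p = 0.0666). The call between the captures was then lost too (adjusted p = 0.202). Of the 18 astrocyte genes 17 had a higher mean in the mutant than in the wild-type captures (median difference 0.75), against 49.5% of all genes, but 1, Gja1, was called. For 5 of the 18 the mutant arrays lay wholly above the wild-type ones (27.8%, against 11.6% of all genes). The summed astrocyte signal did not overlap between the captures, as given above, and its part in the calls was not tested. Oligodendrocyte precursor genes had a higher mean in 8 of 9, with none called by limma and 4 at an unadjusted p below 0.05. For 5 of these 9 the mutant arrays lay wholly above the wild-type ones (55.6%). The lean was not confined to these lists: 12 of 15 meningeal genes (median difference 0.62) and 8 of 12 inhibitory interneuron genes (0.52) also had a higher mean. Schwann cell genes had a higher mean in 2 of 7 (-0.11).

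Kcnj9, a G protein-coupled inward rectifier, read 1467, 2172 and 1854 in the mutant captures, 1296, 1385 and 1186 in cord and 160.8, 21.77 and 16.22 in the wild-type captures, of which 1 was above background (4.81, limma adjusted p = 0.0176). Its other 2 probe sets were not called between the captures, at -0.83 and 1.12 with overlapping groups, and the first of these was lower than cord in the mutant (-1.40). Bex1, an adaptor protein of the brain, was lower than cord in both captures, but read 592.6, 8241 and 4041 in the mutant and 49.21, 60.6 and 70.13 in the wild type, all below background there (at least 17.2-fold higher, limma adjusted p = 0.0358). The mutant arrays of Bex1 spread more than 10-fold and still lay above the wild-type ones. Hspa1b was higher than cord by 2.10 in mutant and by 0.84 in wild-type captures (1.26, adjusted p = 0.0317), while Hspa1a, its copy, differed by 0.69 (adjusted p = 0.213) and Bag3, Hspb8 and Hspb1 by -0.08, 0.04 and -0.05. Of 33 chaperones Hspa1b was the 1 called between the genotypes.

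**Figure D4:**
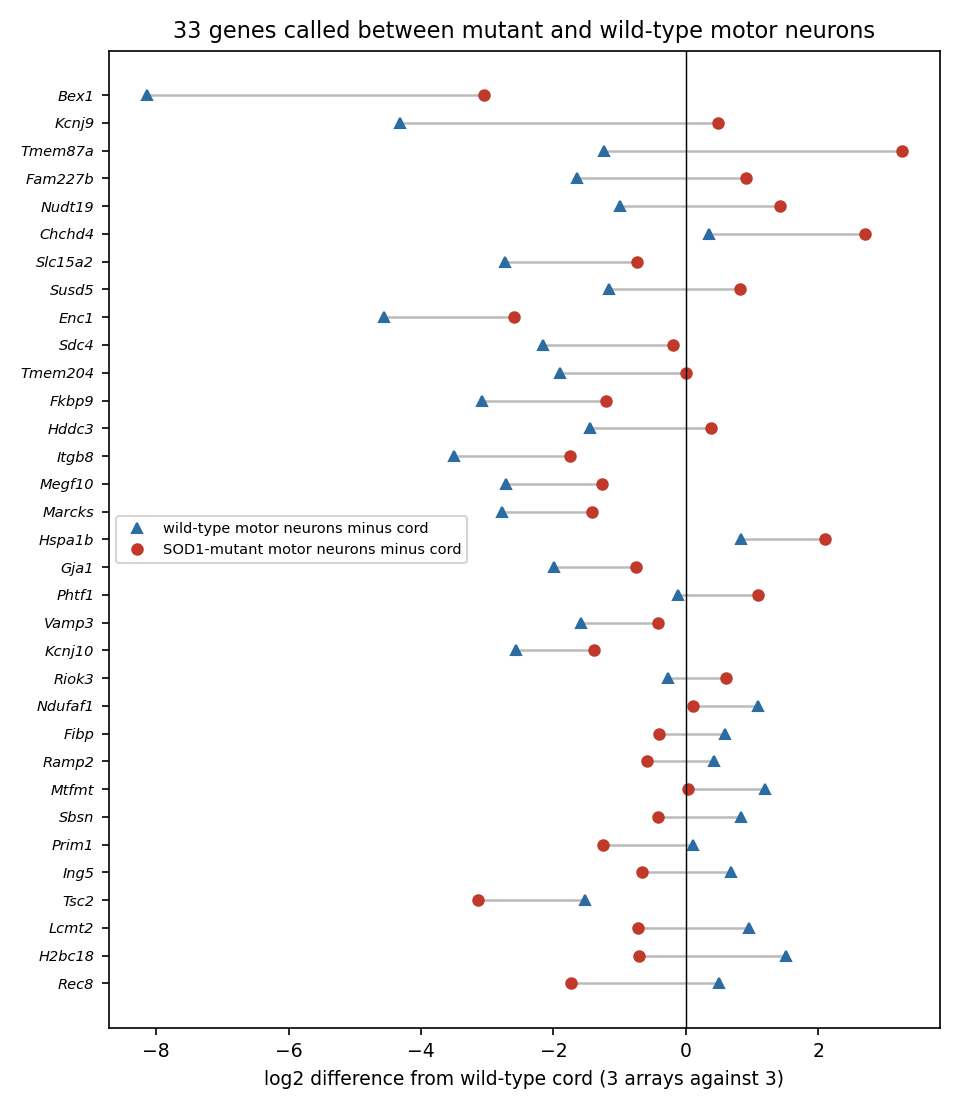
Log2 difference from wild-type cord (horizontal axis) of mutant motor neurons (red circles) and wild-type motor neurons (blue triangles) for the 33 genes called between the 2 captured groups, ordered by the gap between them. The same 3 cord arrays enter both values; the mutant value is the higher one for 22 genes.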

How the data were processed

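Per the labels, each array was hybridised with RNA of wild-type cord, wild-type motor neurons or SOD1-mutant motor neurons, 3 arrays each. The deposited values are linear signal intensity per probe set, and the arrays' trimmed means (2% off each end) were equal, so the authors had scaled them. Their software is not named in any source used here. The table holds 45101 probe sets, of which 64 controls did not enter the tests. A pseudocount of 20.3 (10th percentile) was added before log2, which understates changes of dim genes, and probe sets with a mean above the 40th percentile were tested (27022). In the platform annotation, 34945 probe sets had a single gene. Fits used limma 3.58.1 in R 4.3.3 (lmFit, eBayes with trend) on the 6 arrays of a comparison. Background came from 27 Bacillus probe sets, with a highest value of 332.5. Bounds ("at least") set the bright group's mean against the higher of background and signal in the dim group.

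The members, gene lists and tests were chosen with earlier results of these data known. Named genes followed a rule: the 10 largest rises and falls above background, 5 of each by bound, up to 4 called members per list, 15 genotype calls and the fixed markers. Predicted, clone-named and Fam genes were dropped before these rankings, before the 15 genotype calls were taken and before genes with bounds were counted. Other list members named (among them Lhx3, Lhx4, Calb2, Cck, Itm2a, Egfl7, Hspd1, Hsph1 and Dnaja1) were chosen after their values were seen. In simulated arrays with 200 changed probe sets, 31% of log2 changes of 1 and 74% of changes of 2 were recovered for mutant captures against cord, with 4 false calls, and 14% and 63% with 1 false call between the captures. In the real arrays 62.1% of probe sets were called between mutant captures and cord. The adjusted p depends on how many probe sets change, so these recoveries do not describe that comparison.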

Additional observations from a re-analysis of the deposited data

Results flagged for a closer look

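The genes below were picked out because the mutant and wild-type captures differed in the direct limma test (3 arrays against 3). Each value is mutant minus wild-type motor neurons on the log2 scale. Tmem87a differed by 4.50, Nudt19 by 2.41 and Chchd4 by 2.37. Potassium channels gave 4.81 for Kcnj9, where 1 of 3 wild-type captures was above background, and 1.17 for Kcnj10, and the gap junction gene Gja1 gave 1.25. Bex1 differed by 5.10 (at least 17.2-fold, since all wild-type captures were below background), Hspa1b by 1.26, Marcks, a membrane substrate of protein kinase C, by 1.36, and Sdc4, a cell surface proteoglycan, by 1.96. Fkbp9, a prolyl isomerase of the endoplasmic reticulum, differed by 1.87 and the membrane protein gene Tmem204 by 1.91. The lower ones were Rec8, a meiotic cohesin subunit (-2.22), the histone gene H2bc18 (-2.22) and Lcmt2, an RNA-modifying enzyme (-1.68). Values are those of each gene's brightest probe set. Among genes with several, 1 of 2 was called for Nudt19, Fkbp9 and Sdc4, 1 of 3 for Kcnj9 and Tmem204, 2 of 3 for Hspa1b, 2 of 6 for Gja1 and 1 of 6 for Marcks. The other Sdc4 probe set gave -0.14. Groups of 3 arrays are too small for a test of single outlying arrays.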

How the results depend on the processing

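For mutant captures against cord, 16784 probe sets were called by limma, 5925 higher and 10859 lower. Higher calls numbered 8997 after quantile normalization and 11599 after centring, and lower calls 5158 after centring and 7084 with the stricter filter at the 60th percentile, which tests fewer probe sets. Leaving out 1 array gave 14255 to 17903 calls, 5096 to 6171 higher and 9159 to 11741 lower. Of the 180 named genes 157 kept their direction and side of the threshold under all alternatives. Reversed values after quantile normalization were those of Glul (-0.46), S100b (-0.39) and Lcmt2 (0.16), and after centring those of Ddit3 (0.29), Pvalb (0.52), Lcmt2 (0.13), Gja1 (0.10), Atf4 (0.39), Sdc4 (0.65) and Mbp (0.83). Centring shifts every gene's difference from cord upward by the same amount, so the smallest falls turn positive. What lies behind the reversals after quantile normalization was not tested.

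Between the captures, 60 probe sets became 36 after quantile normalization, 20 after centring, 1184 with all 9 arrays in 1 fit, 3 without the intensity trend and 97 with values raised to background, which was added after the data were seen, and 6 to 71 without 1 array. Leaving out 1 array gave 15477 to 18336 calls for wild-type captures against cord, and control ratio differences of 4.70 to 4.85 (Gapdh) and 4.32 to 4.89 (Actb). Against the middle instead of the 5′ probe set they were 1.91 and 2.44.

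Deviations of same-numbered mutant and cord arrays correlated at -0.04 to 0.02, and those of other-numbered ones at -0.04 to 0.05. Between mutant and wild-type captures, same-numbered arrays correlated at 0.145, 0.171 and 0.002, and other-numbered ones at -0.185 to 0.063. The labels do not say whether same-numbered captures were processed together, and this was not tested. With the replicate block, 5697 probe sets were higher and 10628 lower against cord, and 443 were called between the captures. Among genes other than predicted, clone-named and Fam ones, background limits 116 falls and 22 rises to bounds. Having 3 arrays a group limits the precision.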

Other observations

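Cytosolic ribosomal protein genes, not described so far, were 7 higher and 7 lower of 27 tested in the mutant captures against cord (median -0.02, with 3 higher and 17 lower after quantile normalization and 21 and 2 after centring). With the authors' scaling, 28.4% of all genes were higher and 35.3% lower. The subunit genes Rps25 and Rpl14 were higher by 1.55 and 1.34 on the log2 scale and Rps9 lower by 2.30 on its brightest probe set. A dimmer Rps9 probe set went the other way, from 617.9, 982.7 and 1078 in cord to 17860, 26740 and 15410 in the mutant captures (4.45, limma adjusted p = 4.06e-06), with 1325, 1513 and 2109 in the wild-type captures. Genes of complement, interferon and antigen presentation were 2 higher and 10 lower of 17 (median -1.10). The major histocompatibility gene H2-K1 was lower by 2.09 and H2-D1 higher by 1.17, but both had probe sets called in either direction, and they are related genes whose probes may not separate them. Ifi27, an interferon-induced gene, was higher by 2.33 on 1 of its 2 probe sets.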
